A study of Mus musculus with 8 samples.

Results

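Il10 and 9 genes near it on mouse chromosome 1 were measured in liver from mice with colitis, in arrays labelled as IL-10 knockout and in wild-type arrays. The 10 genes are the IL-10 family cytokines Il10, Il19, Il20 and Il24, the neighbouring genes Mapkapk2, Pfkfb2, Pigr and Fcamr, and Ctse and Chil1, which lie further out. The genes were chosen by position around Il10 and by the size of their log2 difference between the genotypes, from the values of these same 8 arrays. All 10 were found among the 22180 genes that have an array row naming 1 gene. The study compared 4 arrays labelled IL-10 knockout with 4 wild-type arrays. Per the labels, every mouse was a 6-week-old female on a C57BL/6 background that had received 3% dextran sulfate sodium (DSS), which injures the lining of the colon, for 7 days before the liver was taken. DSS was thus given to both groups, and no mice without it are part of the comparison. The origin of the knockout allele, the part of Il10 it removes, the number of backcrosses and any tie between mice and litters are unknown here.

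IL-10 is a cytokine, made by macrophages, T cells and B cells among others, that restrains inflammation by signalling through a receptor of Il10ra and Il10rb to the transcription factor Stat3. IL-19, IL-20 and IL-24 share its fold but use receptors built from Il20ra, Il20rb and Il22ra1, which are found mainly on epithelial cells. Their genes form a compact cluster. The genes around them have other roles, among them a stress kinase (Mapkapk2), an enzyme that sets the pace of glycolysis (Pfkfb2) and receptors that bind polymeric immunoglobulins (Pigr and Fcamr).

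Values are log2 levels from robust multi-array averaging (RMA), 1 row for each of the 10 genes, with SD over n = 4 arrays per group. The level of one row cannot be set against that of another, and the table has no calls of presence or absence. Array medians lay between 6.09 and 6.22, and hepatocyte markers were high in every array, with Alb at 13.51 ± 0.04 in arrays labelled knockout and 13.63 ± 0.02 in wild-type arrays. Although all mice are labelled female, 4 arrays carried Y-linked signal. In replicates 1 and 2 of both genotypes the rows of Eif2s3y, Kdm5d and Uty read between 8.03 and 8.71 and Xist between 5.62 and 6.32. In replicates 3 and 4 of both genotypes the Y-linked rows read between 4.08 and 4.61 and Xist between 11.7 and 11.8. Rows of Y-linked genes with no template thus read up to 4.61, and the row of a silent Xist up to 6.32. The 6.32 was read in knockout-labelled replicate 1, and the other arrays with Y-linked signal read 5.62 to 5.69 for Xist. A value up to 6.32 is therefore not taken to show that a transcript was present. Replicates 1 and 2 are called the Y-signal set and replicates 3 and 4 the Xist-signal set. Each holds 2 arrays of each genotype, and differences are given within both, since the Y-signal set goes against its label.

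Between the genotypes, 9 of the 10 genes had the higher mean in the arrays labelled knockout and only Pigr the lower. The groups did not overlap for 6 genes, Il10, Mapkapk2, Pfkfb2, Fcamr, Ctse and Chil1, and overlapped for Il19, Il20, Il24 and Pigr. Across all genes the groups were apart for 12.9%, and apart with the knockout-labelled group higher for 7.2%. In the limma fit over all genes, 5 of the 10 had an adjusted p below 0.05, all higher, where 3.15% of all genes passed, 1.56% as higher and 1.59% as lower. Of the 699 genes called, 347 were higher and 352 lower, and with arrays shifted to a common median 236 were higher and 393 lower. Since the genes were chosen with this contrast in view, these counts describe the list and nothing is read from them, and no p is given for a single gene of the list between the genotypes.

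**Figure D1:**
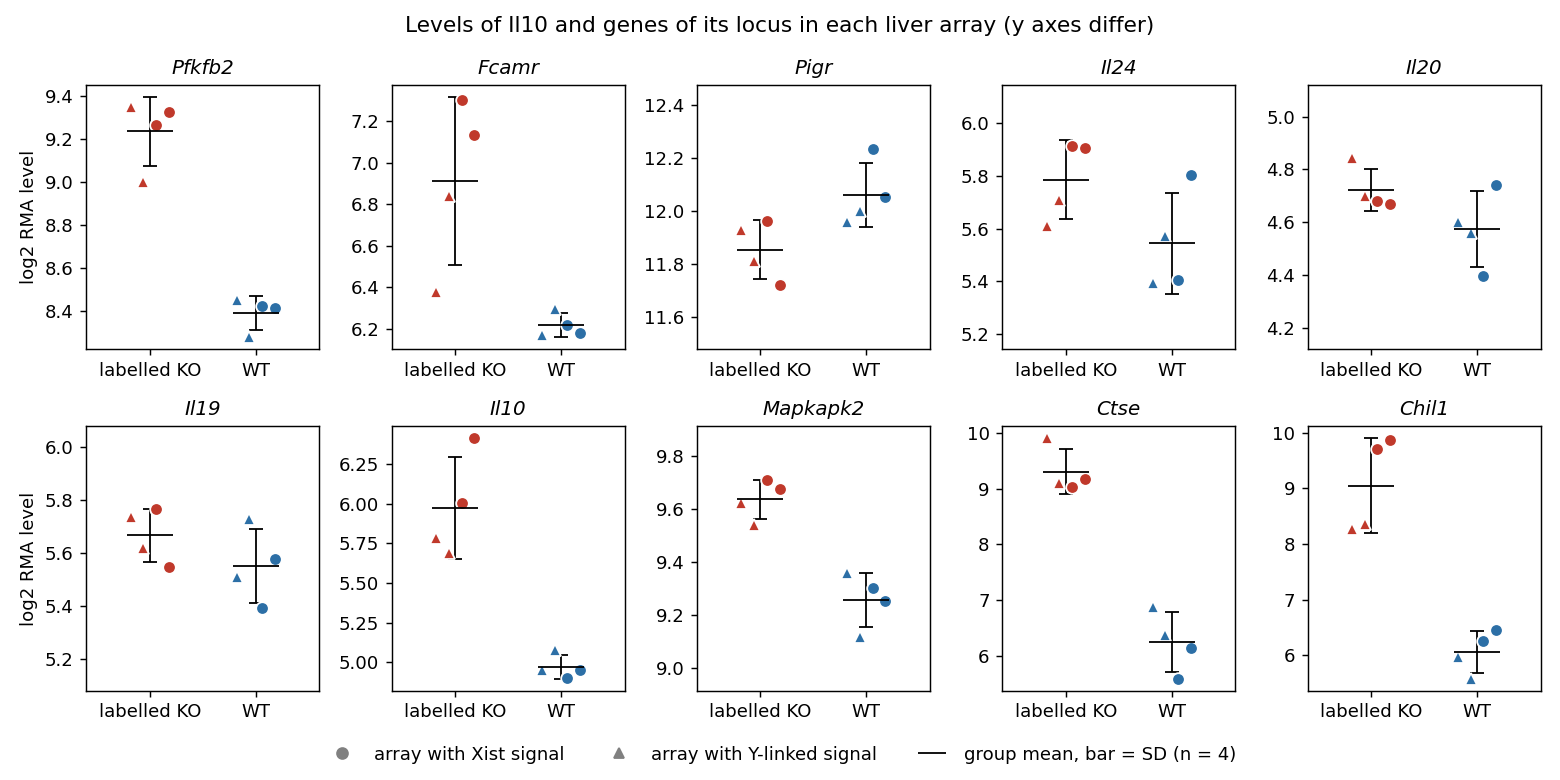
Log2 RMA level (y axis, a separate scale for each gene) of the 10 genes in each array, ordered by position on chromosome 1, with arrays labelled knockout at the left and wild-type arrays at the right of each panel. Circles are arrays with Xist signal, triangles arrays with Y-linked signal, and black bars are group means with SD (n = 4). Ctse and Chil1 are separated by more than 1.8 log2 units between the nearest arrays of the groups, whereas Il19, Il20, Il24 and Pigr overlap.

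The knockout-labelled group had the higher, not the lower, Il10 row. Its values were 5.79, 5.69, 6.00 and 6.41 in knockout-labelled replicates 1 to 4, against 4.95, 5.08, 4.90 and 4.95 in wild-type replicates 1 to 4. The lowest knockout-labelled array stood 0.61 above the highest wild-type array. The knockout-labelled arrays varied more (SD 0.32) than the wild-type arrays (SD 0.08). The log2 difference was 1.00 (SE 0.14), and 0.72 in the Y-signal set against 1.28 in the Xist-signal set. The row cannot check the labels, since it is not known whether its probes lie in the deleted part, and all directions rest on the labels. All values lie near or below 6.32, the highest reading of the silent Xist row. Transcript amount in whole liver does not tell fewer cells of a type from less RNA per cell, here or for the genes below.

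The 3 cytokine genes next to Il10 differed little. Il24, which starts 138 kb from the Il10 start, read 5.61, 5.71, 5.91 and 5.90 in knockout-labelled replicates 1 to 4, against 5.39, 5.57, 5.40 and 5.80 in wild-type replicates. Only wild-type replicate 4 stood among the knockout-labelled values. Il20 (113 kb away) averaged 4.72 ± 0.08 in arrays labelled knockout and 4.57 ± 0.14 in wild-type arrays, and Il19 (87.2 kb away) averaged 5.67 ± 0.10 and 5.55 ± 0.14 in the same order. Their log2 differences were 0.24 (SE 0.11) for Il24, 0.15 (SE 0.09) for Il20 and 0.12 (SE 0.09) for Il19, none of which separated the groups. IL-24 and IL-20 are epithelial cytokines of wound and skin responses, and IL-19 is a related cytokine made by myeloid and epithelial cells. All 3 rows read below 6.32 in every array, so their transcripts were not shown to be present.

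In a list of IL-10 family receptors and STAT3 signalling, 21 genes were measured. Of these, 5 were higher in the arrays labelled knockout (limma adjusted p below 0.05 over all genes), none was lower and 16 did not pass. The 5 were Il22ra1, Il4ra, Il1rn, Cd163 and Hmox1, and among them only Il22ra1 is a receptor subunit of the IL-10 family. The list's median difference was 0.31, against 0.03 over all genes. Il22ra1, the receptor subunit that binds IL-22 and, with Il20rb, IL-20 and IL-24, rose to 10.14 ± 0.21 in arrays labelled knockout, against 8.88 ± 0.35 in wild-type arrays (log2 difference 1.26, SE 0.17; limma adjusted p = 0.00730). Within sets it differed by 1.55 with Y-linked signal and by 0.97 with Xist signal, and its adjusted p stayed at or below 0.0248 without any 1 array. Il1rn, an antagonist of interleukin-1, rose by 2.11 (limma adjusted p = 0.00851), and Hmox1, which degrades heme, by 0.62 (limma adjusted p = 0.00815). The partner subunit Il20rb had a difference of 0.27 (limma adjusted p = 0.196) and Il20ra of 0.03. The receptor subunits of IL-10 itself, Il10ra and Il10rb, had 0.20 (limma adjusted p = 0.358) and 0.00. Of 4 other ligand genes of the family, Il22, Iltifb, Ifnl2 and Ifnl3, none passed limma at an adjusted p below 0.05 and 1 had an unadjusted p below 0.05, Ifnl2 (log2 difference 0.49; limma adjusted p = 0.0750).

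The immunoglobulin receptor genes lie between the cytokine cluster and Pfkfb2 and went different ways. Fcamr, a receptor that binds IgM and IgA, read 6.38, 6.84, 7.30 and 7.14 in knockout-labelled replicates 1 to 4, against 6.17, 6.30, 6.22 and 6.18 in wild-type replicates. The groups were apart by only 0.08, because knockout-labelled replicate 1 stood close to the wild-type arrays. The log2 difference of Fcamr was 0.70 (SE 0.17), with 0.38 in the Y-signal set and 1.02 in the Xist-signal set. All 4 wild-type values lie below 6.32, where a silent Xist row can read. These are thus differences between measured values, and the transcript was not shown to be present in wild-type arrays. Pigr, which carries IgA across hepatocytes and epithelia into bile and gut, read 11.93, 11.81, 11.96 and 11.72 in knockout-labelled replicates, against 11.96, 12.001, 12.23 and 12.05 in wild-type replicates. The log2 difference of Pigr was -0.21 (SE 0.09), and the highest knockout-labelled array met the lowest wild-type array at 11.96. Fcmr, the IgM receptor of B cells, which lies between Pigr and Il24, had a difference of -0.30 (SE 0.12; limma adjusted p = 0.208).

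Among 6 measured genes of immunoglobulin transport and receptors outside the list, 1 was higher in the arrays labelled knockout and 5 did not pass (median -0.04, against 0.03 over all genes). The gene that passed was Fcer1g, the signalling chain shared by several Fc receptors, at 10.85 ± 0.12 in arrays labelled knockout and 10.01 ± 0.15 in wild-type arrays (log2 difference 0.84; limma adjusted p = 0.00587). Fcgrt, the neonatal Fc receptor, had a difference of 0.18 (limma adjusted p = 0.148). Among 11 measured B and plasma cell markers none passed limma and 2 had an unadjusted p below 0.05, and their summed level spanned 12.2 to 12.5 in arrays labelled knockout and 12.002 to 12.3 in wild-type arrays. Between 75.9% and 84.1% of that sum is Xbp1, which other secretory cells and hepatocytes also express, and without it the sum spanned 9.84 to 9.94 in arrays labelled knockout and 9.90 to 10.1 in wild-type arrays.

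Mapkapk2 and Pfkfb2 were higher in all arrays labelled knockout by amounts that were similar in both sets. Pfkfb2, which makes and degrades fructose-2,6-bisphosphate and so tunes glycolysis, starts 331 kb from the Il10 start. It read 9.35, 9.002, 9.27 and 9.33 in knockout-labelled replicates 1 to 4, against 8.45, 8.28, 8.42 and 8.41 in wild-type replicates. Its log2 difference was 0.84 (SE 0.09), with 0.81 in the Y-signal set and 0.88 in the Xist-signal set. Mapkapk2, the kinase MK2 that acts below p38 and stabilises cytokine messenger RNAs, starts 33.9 kb from the Il10 start on the other side from the cytokine cluster. It read 9.62, 9.54, 9.71 and 9.68 in knockout-labelled replicates, against 9.36, 9.11, 9.30 and 9.25 in wild-type replicates. The groups were apart by 0.18, and the log2 difference was 0.38 (SE 0.08), with 0.34 in the Y-signal set and 0.42 in the Xist-signal set.

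Partners of these enzymes gave few calls. Of 14 measured genes of the p38 and MK2 pathway none passed limma at an adjusted p below 0.05 and 3 had an unadjusted p below 0.05, with a median difference of 0.02 against 0.03 over all genes. These were Mapk14, which is p38 alpha (0.21; limma adjusted p = 0.143), Hspb1, a heat shock protein that MK2 phosphorylates (-0.72; 0.159), and Mapk13, which is p38 delta (0.27; 0.215). Of 9 measured genes of fructose-2,6-bisphosphate metabolism and glycolysis, 1 fell and 8 did not pass, with a median of 0.09, and 2 fell without knockout-labelled replicate 1 or without knockout-labelled replicate 2. Pklr, the liver pyruvate kinase, fell by 0.94 (limma adjusted p = 0.0249), a call that ended on dropping any of the 4 wild-type arrays or replicate 4 of those labelled knockout (highest adjusted p 0.0774). Pfkl and Pfkm, subunits of phosphofructokinase, had -0.45 (limma adjusted p = 0.0563) and -0.53 (0.0949), and the related enzyme Pfkfb3 had 0.33 (0.499).

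Ctse and Chil1 had the widest gaps between the groups among the 10 genes. Cathepsin E, an aspartic protease of endosomes known from stomach, immune and red blood cells, is encoded 618 kb from the Il10 start. Ctse read 9.90, 9.10, 9.03 and 9.17 in knockout-labelled replicates 1 to 4, against 6.89, 6.39, 5.60 and 6.14 in wild-type replicates. The lowest knockout-labelled array stood 2.14 above the highest wild-type array. The log2 difference of the measured values was 3.04 (SE 0.27), with 2.86 in the Y-signal set and 3.23 in the Xist-signal set. Both wild-type arrays of the Xist-signal set read below 6.32. With wild-type arrays counted at no less than 6.32, Ctse was 7.05-fold higher over all arrays and 6.86-fold higher in the Xist-signal set. In the Y-signal set, where no wild-type value lay below 6.32, Ctse was 7.25-fold higher. That floor is a reading of the Xist row, and levels of different rows cannot be compared, so these folds are not lower limits.

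Of 13 other cathepsin genes, 1 rose (2 without knockout-labelled replicate 1) and 12 did not pass, with a median difference of 0.01 against 0.03 over all genes. Ctss, a cysteine protease of antigen-presenting cells, rose by 0.69 (SE 0.11; limma adjusted p = 0.0134), and Ctsl and Ctso had 0.49 (limma adjusted p = 0.0550) and 0.32 (0.155). Ctsd, the lysosomal aspartic protease most like cathepsin E, had 0.01. Markers of the stomach and of red blood cells are given beside it, with single stomach genes named after their values were seen. Of 12 stomach and intestine markers none passed limma, 7 had a positive difference and 1, Vil1 (0.24), had an unadjusted p below 0.05. The stomach genes Gkn1, Gkn2, Tff1, Tff2, Muc5ac, Pgc and Atp4a had 0.23, 0.28, -0.06, -0.10, 0.05, -0.07 and -0.14. The summed level of that list spanned 10.4 to 10.7 in arrays labelled knockout and 10.4 to 10.9 in wild-type arrays. The summed level of 8 erythroid markers spanned 9.54 to 9.64 in arrays labelled knockout and 9.79 to 10.11 in wild-type arrays. Without Tspan33, the brightest row, the sums overlapped, at 9.04 to 9.30 in arrays labelled knockout and 9.17 to 9.65 in wild-type arrays. The median difference of the 8 was -0.002 against 0.03 over all genes, and 4 had a positive difference. Of the 8, 2 fell at an adjusted p below 0.05 and none rose. The 2 were Car1, a carbonic anhydrase of red cells (-0.95; limma adjusted p = 0.0230), and Tspan33 (-0.52; 0.0436). Dropping wild-type replicate 2, wild-type replicate 3 or knockout-labelled replicate 4 ended the call of Car1 (highest adjusted p 0.0669). Dropping any of wild-type replicates 1 to 3, or of knockout-labelled replicates 3 and 4, ended that of Tspan33 (highest 0.127).

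Chil1 was high in all arrays labelled knockout, with a visible split among them. It encodes chitinase-3-like protein 1, also called BRP-39 in mice, a secreted lectin of neutrophils and macrophages that binds chitin without cutting it. Chil1 starts 3162 kb from the Il10 start, the furthest of the 10 genes. It read 8.27, 8.35, 9.70 and 9.86 in knockout-labelled replicates 1 to 4, against 5.97, 5.58, 6.25 and 6.45 in wild-type replicates. Replicates 3 and 4, with Xist signal, were the higher pair in both genotypes. The log2 difference of the measured values was 2.99 (SE 0.36), with 2.54 in the Y-signal set and 3.43 in the Xist-signal set, the last above that of Ctse. Of the 4 wild-type arrays 3 read below 6.32, both of the Y-signal set among them. With wild-type arrays counted at no less than 6.32, Chil1 was 6.47-fold higher over all arrays, 3.97-fold in the Y-signal set and 10.5-fold in the Xist-signal set. That floor again comes from the Xist row and sets no lower limit.

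Of 8 other chitinase and chitinase-like genes, 1 rose and 7 did not pass, with a median difference of 0.01 against 0.03 over all genes. The gene that rose was Chil3, a lectin of myeloid cells on another chromosome (1.05, SE 0.17; limma adjusted p = 0.0143), and it missed the threshold without wild-type replicate 3 (adjusted p = 0.0502). Chil5 and Ctbs had 0.24 (limma adjusted p = 0.149) and -0.18 (0.186). Chit1, the true chitinase that starts 70.9 kb from Chil1, read 5.76 ± 0.19 in arrays labelled knockout and 5.75 ± 0.14 in wild-type arrays (log2 difference 0.00, SE 0.11, limma adjusted p = 0.997). Both means lie below 6.32, so its transcript was not shown to be present.

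**Figure D2:**
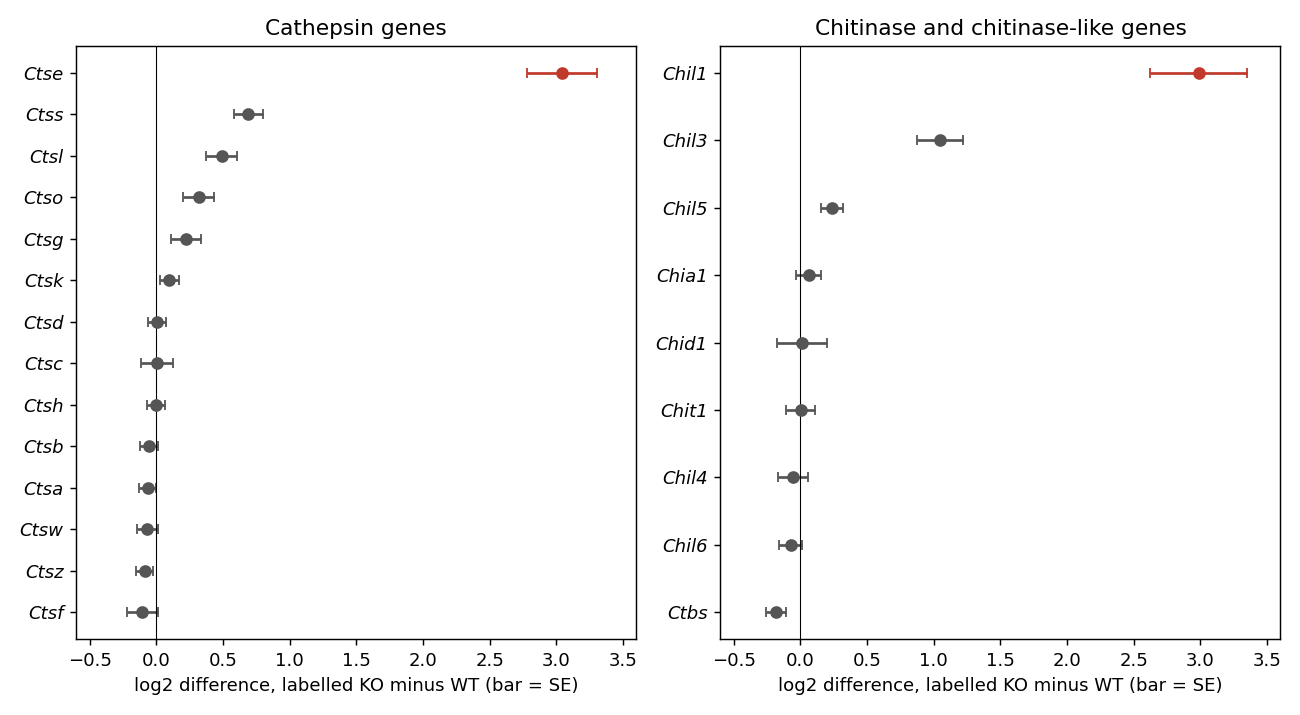
Log2 difference between arrays labelled knockout and wild-type arrays (x axis, bars are SE, n = 4 per group) for cathepsin genes at the left and chitinase and chitinase-like genes at the right. Ctse at 3.04 and Chil1 at 2.99, in red, stand to the right of their families, where Ctss at 0.69 and Chil3 at 1.05 come next.

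The RefSeq promoter table of build GRCm38.p6 held entries for 7 of the 10 genes, Chil1, Pfkfb2, Fcamr, Mapkapk2, Pigr, Il19 and Il20. The 250 bases before the start are shown for 3 genes whose groups did not overlap, Chil1, Pfkfb2 (first listed of its 3 starts) and Fcamr, and for Il19, whose groups did. They run 5′ to 3′ on the gene's strand, and capitals mark matches to the motifs named after them.
Chil1, chr1:134181906-134182155, plus strand: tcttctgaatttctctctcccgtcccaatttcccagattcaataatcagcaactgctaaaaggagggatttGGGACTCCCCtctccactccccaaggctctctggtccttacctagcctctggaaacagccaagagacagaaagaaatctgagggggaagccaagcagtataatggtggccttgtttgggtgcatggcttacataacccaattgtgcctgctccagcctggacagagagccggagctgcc
Pfkfb2, chr1:130715822-130716071, minus strand: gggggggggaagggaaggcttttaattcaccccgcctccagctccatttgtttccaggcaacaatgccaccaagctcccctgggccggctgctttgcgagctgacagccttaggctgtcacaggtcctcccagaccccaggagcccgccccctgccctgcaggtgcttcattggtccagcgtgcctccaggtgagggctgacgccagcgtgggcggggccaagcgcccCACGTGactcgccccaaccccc
Fcamr, chr1:130800652-130800901, plus strand: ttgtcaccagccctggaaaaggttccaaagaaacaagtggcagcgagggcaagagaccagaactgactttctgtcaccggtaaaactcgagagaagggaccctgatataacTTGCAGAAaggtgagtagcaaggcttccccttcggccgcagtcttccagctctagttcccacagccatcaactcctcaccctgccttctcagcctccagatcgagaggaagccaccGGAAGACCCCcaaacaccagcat
Il19, chr1:130940116-130940365, minus strand: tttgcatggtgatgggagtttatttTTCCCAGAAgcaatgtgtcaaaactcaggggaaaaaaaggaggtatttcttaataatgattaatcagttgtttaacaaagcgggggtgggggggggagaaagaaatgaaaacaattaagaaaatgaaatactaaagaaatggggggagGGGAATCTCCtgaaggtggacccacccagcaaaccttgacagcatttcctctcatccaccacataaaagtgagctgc

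Letters were searched on both strands for 6 motifs: NF-kB by its usual degenerate consensus, the STAT motif TTCNNNGAA, the C/EBP motif TTGCNNAA, the AP-1 motif TGANTCA, the TATA box TATAAA and the E-box CACGTG. The matches shown do not overlap each other. Chil1 holds 1 NF-kB match, which begins 179 bases before the start. Fcamr holds an NF-kB match 23 bases and a C/EBP match 139 bases before the start, and Il19 an NF-kB match at 77 and a STAT match at 225 bases. Pfkfb2 at this start, and Pigr, hold an E-box, 22 and 71 bases before their starts, and the second listed start of Pfkfb2 has an NF-kB match 244 bases before it. Mapkapk2 and Il20 hold none of the 6. Among all 32851 promoter windows of that length in the table, 5% hold the NF-kB motif, 7.02% the STAT motif, 9.56% the C/EBP motif and 6.02% the E-box. Matches thus occur both in genes with separate groups and in genes with overlapping ones, and they describe letters only.

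By position, the differences did not fall off smoothly from Il10. Of 32 measured genes starting within 1 Mb of the Il10 start, 5 were higher and none lower at an adjusted p below 0.05 (15.6%), and within 5 Mb the counts were 6 and 1 of 111 (6.31%), against 3.15% of all genes. Most of these are genes already described, and the list took strongly changed genes out of these windows. Shares among the genes left are lowered by that choice and cannot be set against that of all genes. Outside the list, 1 of 23 genes within 1 Mb (4.35%) and 2 of 101 within 5 Mb (1.98%) passed. The 2 were AA986860, an uncharacterised gene that starts 288 kb from Il10 between Pfkfb2 and Fcamr, and Mcm6, a subunit of the replicative helicase. AA986860 read 7.72 ± 0.22 in arrays labelled knockout and 7.13 ± 0.10 in wild-type arrays (log2 difference 0.60; limma adjusted p = 0.0225), and Mcm6 read 6.25 ± 0.16 and 6.99 ± 0.29 in the same order (-0.74; 0.0259). Dropping any of wild-type replicates 1 to 3, or knockout-labelled replicate 4, ended the call of AA986860 (highest adjusted p 0.0716). That of Mcm6 ended on dropping wild-type replicate 2 or 3, or knockout-labelled replicate 2 or 4 (highest 0.0787). Within 5 Mb, 4 genes were called in the fits without wild-type replicate 2, without wild-type replicate 3 or without knockout-labelled replicate 4.

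Small differences leaned upwards close to Il10, and also within 5 Mb. The genes of the list were chosen by this difference. Only genes outside it are therefore described, and their median and shares are altered by leaving out the list. Within 1 Mb their median difference was 0.13, and 18 of 23 (78.3%) had the higher mean in the arrays labelled knockout. Over all genes these were 0.03 and 56.0%. The groups were apart for 5 of the 23 (21.7%), against 12.9% of all genes. Within 5 Mb the median was 0.07, 68 of 101 (67.3%) had the higher mean and 19.8% were apart. The 5 nearest genes beyond Mapkapk2 were Dyrk3, Eif2d, Rassf5, Ikbke and Srgap2, a mixture of kinases, a translation factor and signalling adaptors. Their differences were 0.10, 0.02, 0.27, 0.33 and -0.13, with limma adjusted p between 0.124 and 0.922. The genes next to the 2 most changed ones, named here after their values were seen, had differences near 0. Avpr1b and Rab7b, 39.2 kb and 50.4 kb to either side of Ctse, had 0.07 and -0.03 (limma adjusted p = 0.740 and 0.894), with mean levels below 6.32 in both groups, so their transcripts were not shown to be present. Myog, 108 kb beyond Chil1 on the side away from Chit1, had 0.06 (limma adjusted p = 0.762).

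**Figure D3:**
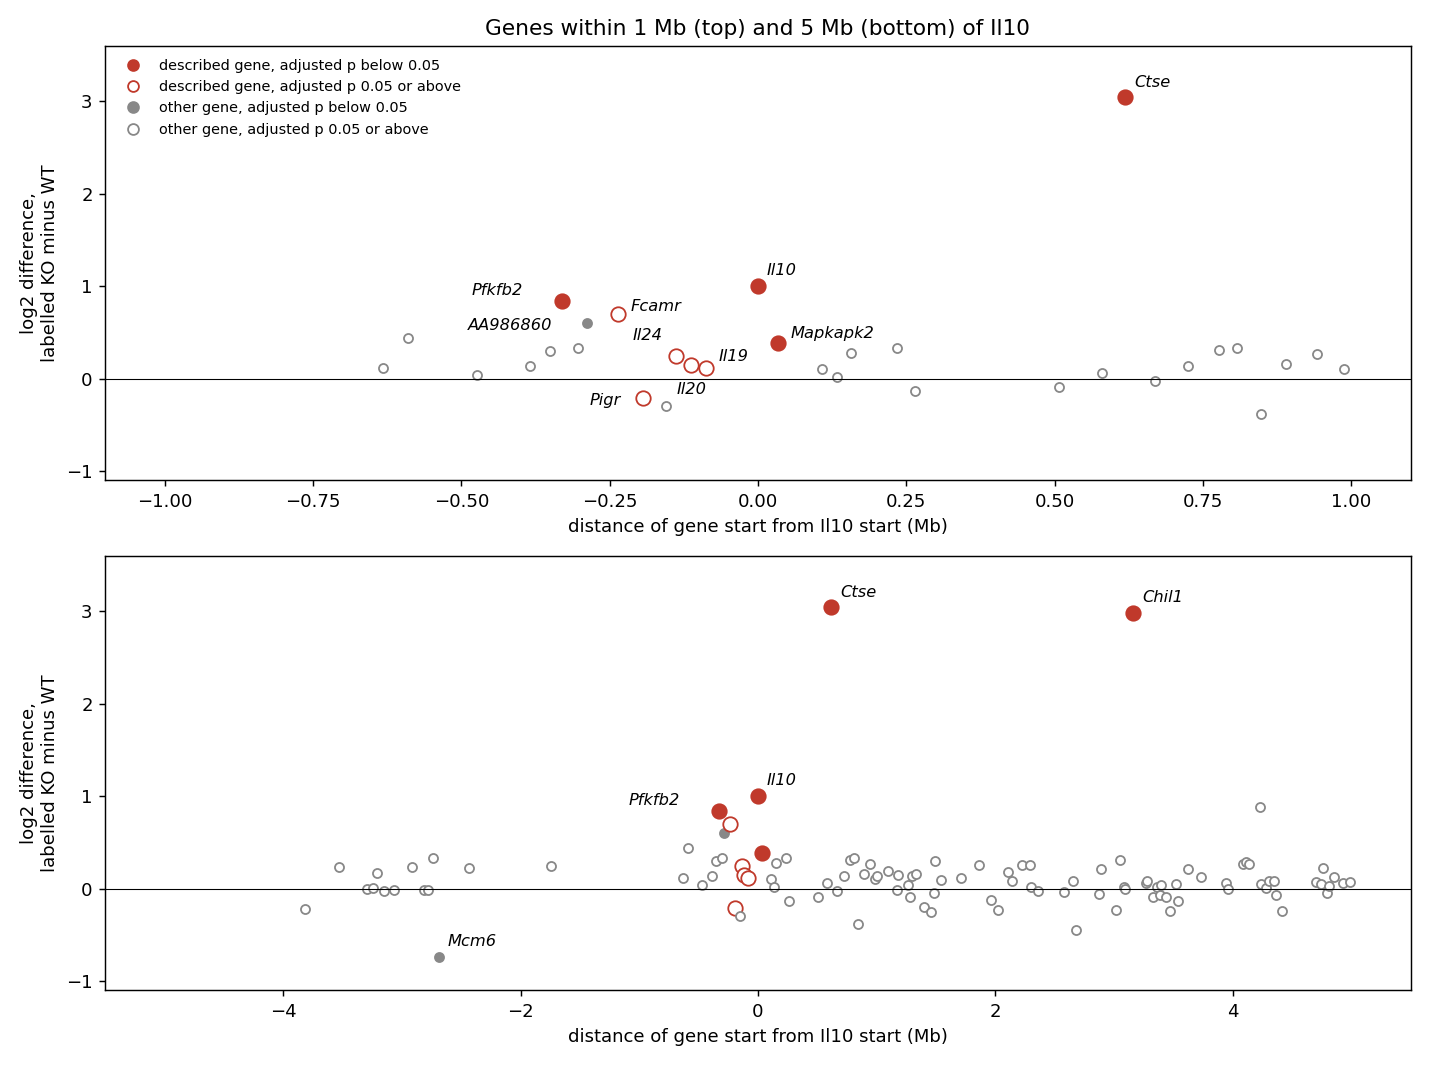
Log2 difference between arrays labelled knockout and wild-type arrays (y axis) against the distance of each gene's start from the Il10 start in Mb (x axis), for genes within 1 Mb at the top and within 5 Mb at the bottom. Red circles are the genes described here and grey circles the others, filled where the limma adjusted p was below 0.05. Ctse at 3.04 and Chil1 at 2.99 stand above all other genes plotted.

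The genotype differences within the 2 sets average to the difference that chose the genes and are given as a description, with the same direction in both sets for all 10. The interaction of genotype and set did not enter the choice. For 8 genes, all but Il20 and Pigr, the difference was the more positive in the Xist-signal set. The same share over all genes is not given, so nothing is read from this count. Among the 8, Il19, Il24, Mapkapk2, Pfkfb2 and Ctse had an interaction smaller in size than its SE. The interaction of genotype and set was -0.90 for Chil1 (SE 0.21), -0.64 for Fcamr (SE 0.22) and -0.56 for Il10 (SE 0.20), as the difference in the Y-signal set minus that in the Xist-signal set. None of the 10 passed limma over all genes (adjusted p between 0.549 and 0.980). These 3 had an unadjusted p below 0.05, as did 5.48% of all genes, and 0.0271% of all genes passed the adjusted threshold. With the genotype in the model, Chil1 was lower by a log2 difference of -1.02 (SE 0.18) in the Y-signal set, a fold of 2.03, and limma gave an adjusted p of 0.0859, where 0.198% of all genes passed. Its adjusted p was 0.0420 without wild-type replicate 1 and lay between 0.0679 and 0.268 under the 11 other alternatives tried. Ctse ran the other way, higher by 0.58 (SE 0.20) in the Y-signal set (limma adjusted p = 0.622).

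**Figure D4:**
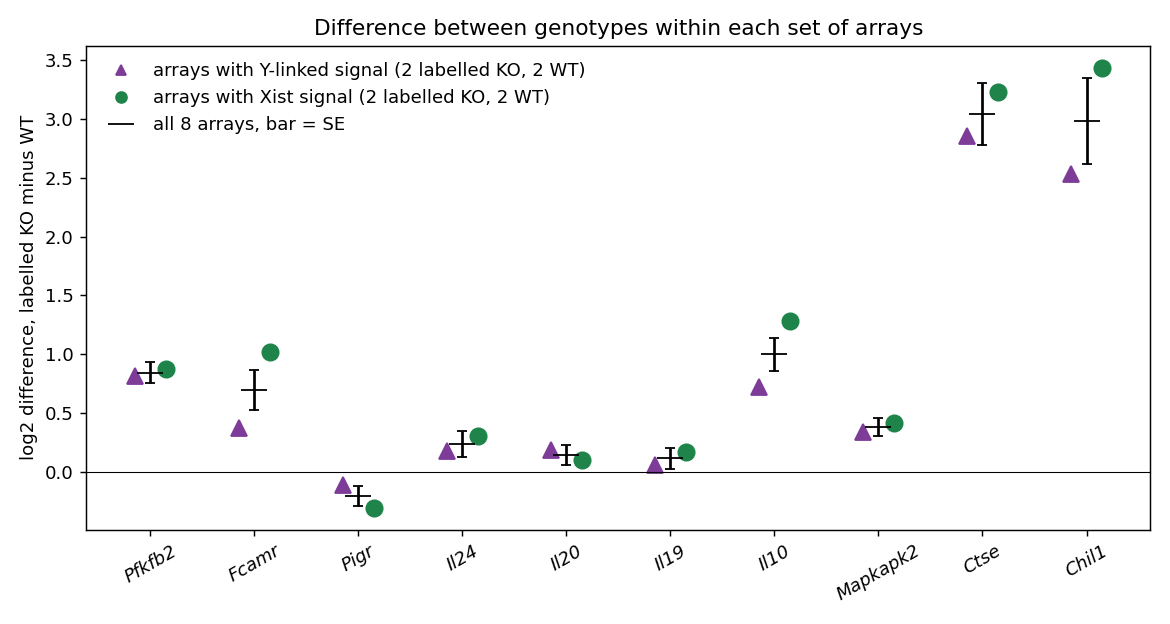
Log2 difference between arrays labelled knockout and wild-type arrays (y axis) for each of the 10 genes (x axis, by position), in the Y-signal set (triangles), in the Xist-signal set (circles) and in all 8 (black, bars are SE). Each set holds 2 arrays per genotype. Mapkapk2 and Pfkfb2 nearly coincide between the sets, while Il10, Fcamr and Chil1 are further apart.

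Markers of myeloid cells moved with these genes between the genotypes. Of 15 neutrophil markers, 11 rose and 1 fell with the knockout label, those of smallest p being Mmp8 (2.16), Cxcr2 (0.86) and Ngp (2.42). The gene that fell was Prtn3 (-0.72, limma adjusted p = 0.0101), which kept its call in each fit without 1 array (highest adjusted p 0.0370). The 11 became 5 without wild-type replicate 1, without wild-type replicate 3 or without knockout-labelled replicate 4. Lcn2, which hepatocytes also make in inflammation, holds between 69.7% and 76.8% of the summed level of that list, which spanned 13.3 to 13.7 in arrays labelled knockout and 12.3 to 13.0 in wild-type arrays. Without Lcn2 the sum spanned 11.2 to 11.9 in arrays labelled knockout and 10.6 to 10.9 in wild-type arrays.

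Of 13 Kupffer cell and macrophage markers 6 were higher, and the summed level spanned 13.9 to 14.2 in arrays labelled knockout and 13.4 to 13.6 in wild-type arrays. The 6 became 2 without wild-type replicate 1, without wild-type replicate 2 or without knockout-labelled replicate 4, and 3 without knockout-labelled replicate 2. Of 10 monocyte and dendritic cell markers 5 were higher, and 3 without wild-type replicate 1 or without wild-type replicate 2. The summed level of the 10 spanned 10.4 to 10.9 in arrays labelled knockout and 9.70 to 9.90 in wild-type arrays. Chil3, given above with the chitinase-like genes, is 1 of these 5. Cd163 is 1 of the 6 macrophage genes and also in the list of IL-10 family receptors and STAT3 signalling. The lists are thus not independent. Within the sets the neutrophil list went no one way: of its 11 genes called higher, 7 had the larger difference in the Xist-signal set, among them Ngp (1.87 in the Y-signal set and 2.97 in the Xist-signal set), while Cxcr2 had 0.86 in both and Ly6g had 1.11 in the Y-signal set and 0.64 in the Xist-signal set. The median difference of the neutrophil list was 0.56 in the Y-signal set and 0.85 in the Xist-signal set. The other lists leaned the other way, with 0.68 and 0.41 in the same order for macrophage markers, and 0.68 and 0.32 for monocyte and dendritic cell markers. Of their genes called higher, 1 of 6 and 1 of 5 had the larger difference in the Xist-signal set. The part of these myeloid cells in the values of Il10, Ctse, Chil1 and Fcamr was not tested. Of 12 T and NK cell markers none passed limma, with 1 at an unadjusted p below 0.05.

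**Figure D5:**
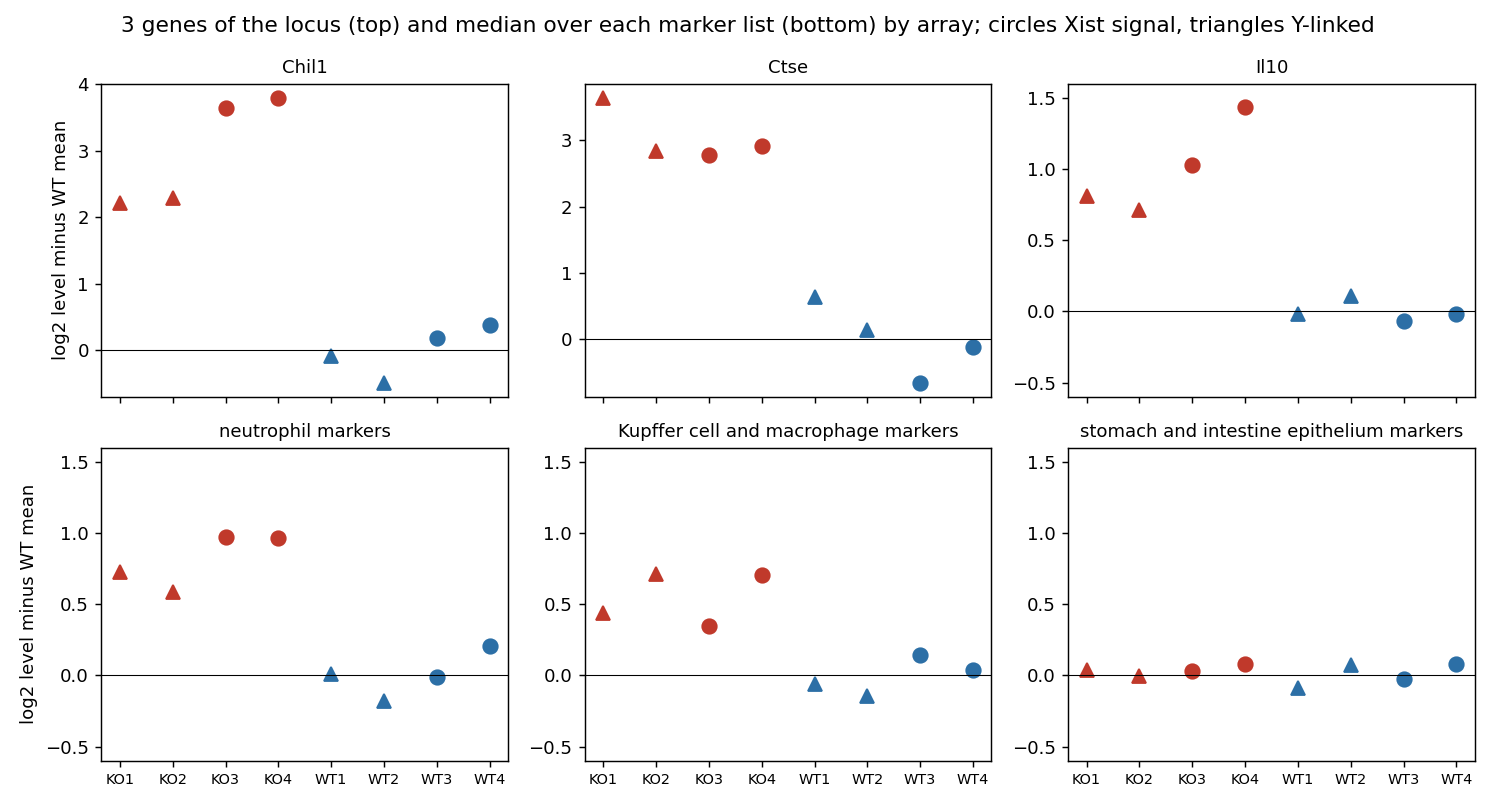
Log2 level of Chil1, Ctse and Il10 minus the wild-type mean (top) and the median of that difference over the genes of the neutrophil, macrophage and stomach and intestine lists (bottom) in each array (y axes, scales differ), with arrays labelled knockout (red) left of wild-type arrays (blue). Circles carry Xist signal and triangles Y-linked signal. The neutrophil median lies between 0.59 and 0.97 in arrays labelled knockout and between -0.18 and 0.20 in wild-type arrays, and the stomach and intestine medians of the groups overlap.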

How the data were processed

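Liver RNA was hybridised to 8 Affymetrix Mouse Gene ST arrays, 4 labelled IL-10 knockout and 4 wild-type. The values are deposited on a log2 scale and come from RMA run by the authors; the submitters' processing notes name R 3.0.1. Other settings, and the build of the array annotation, are unknown here. The table holds 41345 rows, of which 23521 name 1 gene in the platform annotation, giving 22180 genes; where a gene had several rows, the brightest on average over the 8 arrays was used. Each of the 10 genes had 1 row. Positions came from the RefSeq table of GRCm38.p6, matched by gene number for 21994 genes, and are given only as distances between gene starts, except for promoters.

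Genes were compared with limma 3.58.1 (lmFit, eBayes) in R 4.3.3 over all 22180 genes, as the knockout-labelled mean minus the wild-type mean; p-values were adjusted by Benjamini-Hochberg, with a threshold of 0.05. Every adjusted p is from limma, and the spread behind it is that between samples, which may be technical, since the labels do not name separate animals. Sets by sex-linked signal were formed from Xist and 3 Y-linked rows. The members and lists were chosen with earlier results of these data known. The other genes named were the nearest 6 on each side of Il10, the 12 largest called changes within 20 Mb with groups apart, up to 3 of each list by p, the chitinases and cathepsins near Il10, the 5 genes most like Il10, Ctse or Chil1, the sex-linked genes and Alb; receptor subunits, related enzymes, stomach genes and the neighbours of Ctse and Chil1 fall outside that rule and were named after their values were seen. The fit was tested on simulated data. Alternatives were a filter on the lowest 40% of genes, averaging the rows of a gene, a common median, quantile normalization, trend and robust settings, blocks, each set alone and each array left out. For Ctse and Chil1, the folds between genotypes count each wild-type array at no less than 6.32. That is the highest reading of an Xist or Y-linked row in the set without that signal, and these folds are not lower limits. Counts per list under each alternative were added after seeing the data. The number of arrays limits the precision.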

Additional observations from a re-analysis of the deposited data

Results flagged for a closer look

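Among the 10 genes in both groups, 20 groups of 4 arrays were examined for an array far from the rest, and 2 held one. Chance marks about 1 in 20 such groups. Ctse in knockout-labelled replicate 1, at 9.90, stood above the other arrays of that group, which lay between 9.03 and 9.17. Il20 in knockout-labelled replicate 1, at 4.84, stood above the others of that group by a gap that was 0.830 of the group's range, just past Dixon's limit for 4 samples.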

How the results depend on the processing

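Each of the 10 genes kept the direction of its genotype difference under every alternative run (16 for Il10, Il19, Il20 and Il24, which the filter on low genes removes, and 17 for the others). The genes were chosen with this difference in view. Their kept direction, and the counts among the 10 genes below, are thus a description and no support for the difference. The count of all genes called, 699 as reported, was 317 in the Xist-signal set alone and 171 in the Y-signal set alone, and between 207 and 1040 without 1 array, falling to 207, 237 and 238 without wild-type replicates 1, 2 and 3 and to 207 without knockout-labelled replicate 4. With the replicate block it was 497. The count among the 10 genes was 3 in the Y-signal set alone and between 4 and 6 without 1 array: Mapkapk2 missed the threshold without any 1 wild-type array or without knockout-labelled replicates 3 or 4, and Fcamr passed without knockout-labelled replicate 1. Fcamr also passed with the block for sex-linked signal, with low genes left out and in the Xist-signal set alone. Within 5 Mb of Il10 the count of 7 became 3 in the Y-signal set alone, 14 within 20 Mb, and between 4 and 8 without 1 array. Il10 and Fcamr moved by more than their pooled within-group SD (0.23 and 0.29), though by less than the SD of the knockout-labelled arrays, in the sets alone, to 0.72 and 0.38 with Y-linked signal and to 1.28 and 1.02 with Xist signal; these are sets of 2 arrays per genotype, and the cause was not tested. With the replicate block 4 of the 10 genes and 5 within 5 Mb were called. Replicate numbers are shared but the labels tie them to nothing, deviations of same-numbered arrays correlated between -0.10 and 0.29, and 2 of 8 arrays correlated best with their own number, so the block is not a pairing.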

Other observations

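Further along chromosome 1, called genes within 20 Mb of Il10 went both ways. Kcnt2, a sodium-activated potassium channel, read 9.02 ± 0.41 in arrays labelled knockout and 7.60 ± 0.46 in wild-type arrays (log2 difference 1.43; limma adjusted p = 0.0184), and Insig2, which holds back the activation of sterol-regulated transcription factors, read 11.07 ± 0.25 and 9.99 ± 0.21 in the same order (1.09; 0.00682). Prg4, a secreted proteoglycan, and Rgs2, a regulator of G-protein signalling, rose by 0.67 and 0.47 (limma adjusted p = 0.0279 and 0.0368). Uchl5, a deubiquitinase of the proteasome, and Steap3, an iron reductase, fell by 0.61 and 0.59 (0.0346 and 0.0287). Insig2 kept its call in each fit without 1 array. Dropping wild-type replicate 1 or knockout-labelled replicate 4 ended that of Kcnt2 (highest adjusted p 0.0614). Prg4, Rgs2, Uchl5 and Steap3 each lost it without at least 1 wild-type array and without knockout-labelled replicate 4 (up to 0.0812, 0.111, 0.105 and 0.0924).

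The genes whose level ran most like Il10 over the 8 arrays were Rgs10, Kctd17, Ltf, Abca1 and Gde1 (Pearson r between 0.977 and 0.993), which includes the separation of the genotypes. After taking out the group means, the closest were Olfr412, Zc3h13, Vmn1r86, Spef1l and Arid5a for Il10 (r between 0.962 and 0.993), Olfr473, Ptges3, Cd244a, Krt27 and Wdr75 for Ctse (0.934 to 0.976) and Mmp7, Ntmt1, Gpatch2l, Psd and Tecta for Chil1 (0.979 to 0.990). None of the genes closest to Il10 by deviations was among those closest to it by level. These are the highest of 22180 genes over 8 arrays and describe likeness only.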
